A study of Mus musculus with 4 samples.

Results

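The 10 genes described here form the core of the insulin-like growth factor (IGF) axis in mouse bone marrow stroma: the ligands Igf1 and Igf2, the receptors Igf1r and Insr, and the binding proteins Igfbp2, Igfbp3, Igfbp4, Igfbp5, Igfbp6 and Igfbp7. They were chosen by symbol out of 33924 genes, of which 21340 had enough counts to be tested. All 10 were tested. RNA-seq was performed on marrow of wild-type C57Bl/6 mice, called mature at 3 months of age and elderly at 24 months, with 2 libraries per age. The study's methods describe male mice, and a sort for cells that lack Ter119, CD31 and CD45 (Lin-) and carry the leptin receptor (LEPR+), a population rich in skeletal stem/progenitor cells, while the sample labels give unsorted marrow as the source. The sample titles number a mouse for each library, while the labels' protocol and the study's methods describe RNA of 3 or 4 mice per group, so whether a library holds 1 mouse or a pool is not clear. An SD or a p-value here covers only the spread between these libraries.

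IGF1 and IGF2 are secreted growth factors that signal through the receptor tyrosine kinase IGF1R and, with isoform-dependent affinity, through the insulin receptor. In extracellular fluid most IGF is held by IGF binding proteins, which lengthen its half-life and limit its access to the receptor, and proteases that cut the binding proteins set it free. In bone, IGF1 promotes osteoblast differentiation and matrix production, IGFBP4 is known mainly as an inhibitor of IGF action, and IGFBP5 binds to bone matrix and has been described as both stimulating and inhibiting.

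A transcript's count in these data holds only reads on exonic bases that it shares with no other transcript on either strand, called countable bases here. All 25621 transcripts without such a base had 0 counts in every library. The IGF axis genes have 39 annotated transcripts (GENCODE M1 on NCBIM37, also called mm9), of which 27 have countable bases, and the share that can be counted differs widely between members. Igfbp6 could be counted over all 1112 bases of its single transcript, Igfbp3 over 2130 bases, which is 88.0% of the length of its longest transcript, Insr over 81.6% and Igfbp4 over 76.6%. Igf1 (28.2%), Igfbp5 (28.7%), Igf1r (23.1%) and Igf2 (23.3%) were each counted over a much smaller share. None of the countable bases of Igfbp3, Igfbp5 and Igf2 is coding. Igfbp7 was counted over a single coding stretch of 93 bases, present in only 1 of its 3 transcripts. A low count of Igfbp7 or Igf1 therefore does not show that the gene as a whole is lowly expressed.

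**Figure D1:**
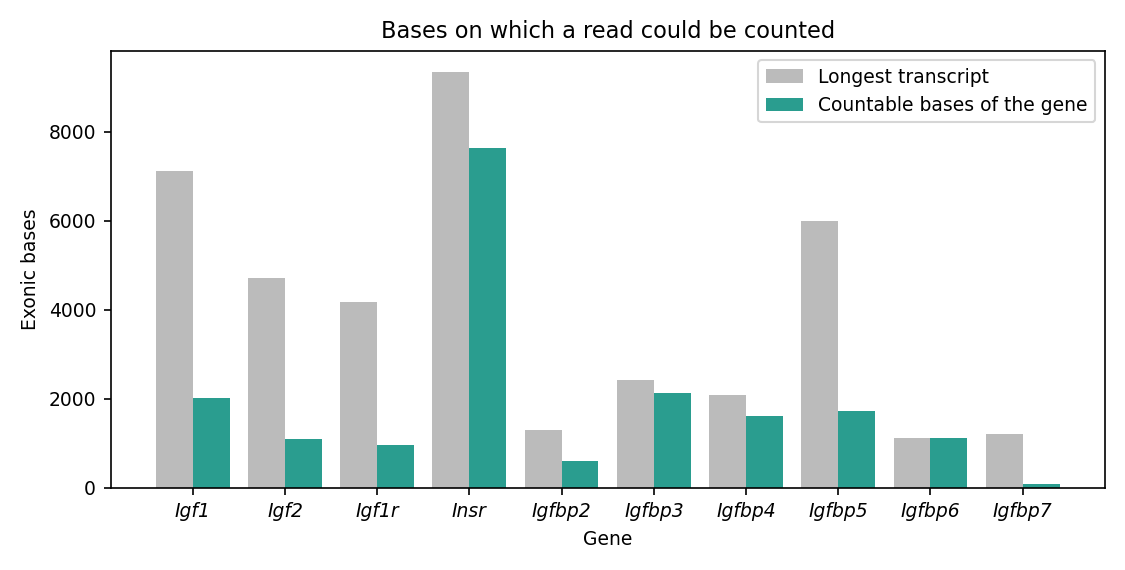
Exonic bases of the longest transcript (grey bars) and countable bases of the gene (green bars) for each IGF axis gene, in bases. Insr has the most countable bases (7636), Igfbp7 the fewest (93 beside a longest transcript of 1213), and in Igfbp6 the bars are equal at 1112.

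A coding stretch is shown for Igfbp7, where it is all that could be counted, and for the most counted Igf1 transcript, where it is the coding part of what could be counted. The Igfbp7 stretch lies in Igfbp7-203 at chr5:77830512-77830604 (minus strand, NCBIM37). The Igf1 stretch of 89 bases is the coding part, up to the stop codon, of the long exon of Igf1-002 at chr10:87378095-87378183 (plus strand, NCBIM37), and beyond it and the stop codon the 1121 countable bases of that transcript, on any of which its counts may lie, are noncoding. Both are written 5′ to 3′ with no part in capitals.
Igfbp7-203: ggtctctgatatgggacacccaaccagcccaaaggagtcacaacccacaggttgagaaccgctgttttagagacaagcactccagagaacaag
Igf1-002: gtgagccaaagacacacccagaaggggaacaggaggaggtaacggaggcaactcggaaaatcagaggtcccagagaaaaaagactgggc

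The promoters of the 3 binding proteins with the highest levels are shown for reference, from RefSeq on GRCm38.p6, a different build from that of the counts. Each run covers bases 250 to 21 before the RefSeq start, 5′ to 3′ on the gene's strand, with a TATA-like match in capitals. Igfbp3 lies at chr11:7213944-7214173 (minus strand), Igfbp4 at chr11:99040994-99041223 (plus strand) and Igfbp5 at chr1:72874886-72875115 (minus strand).
Igfbp3: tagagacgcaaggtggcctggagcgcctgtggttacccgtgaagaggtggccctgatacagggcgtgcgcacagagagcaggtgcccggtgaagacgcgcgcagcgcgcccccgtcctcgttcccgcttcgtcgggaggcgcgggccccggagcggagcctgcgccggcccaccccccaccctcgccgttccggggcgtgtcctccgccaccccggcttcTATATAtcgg
Igfbp4: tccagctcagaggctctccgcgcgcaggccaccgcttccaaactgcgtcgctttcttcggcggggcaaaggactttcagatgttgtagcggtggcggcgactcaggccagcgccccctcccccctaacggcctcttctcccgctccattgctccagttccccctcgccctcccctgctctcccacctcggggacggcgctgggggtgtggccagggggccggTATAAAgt
Igfbp5: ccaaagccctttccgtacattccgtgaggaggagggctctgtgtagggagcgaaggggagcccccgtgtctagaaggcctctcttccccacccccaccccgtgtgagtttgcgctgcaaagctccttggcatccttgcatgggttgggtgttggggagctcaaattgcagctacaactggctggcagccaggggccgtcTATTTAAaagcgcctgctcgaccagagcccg
The first letter of the match lies 30 bases before the start in Igfbp3 (TATATA), 28 bases before it in Igfbp4 (TATAAA) and 51 bases before it in Igfbp5 (TATTTAA). In the annotation used for the counts, the first start of Igfbp5 lies 19 bases before its RefSeq start, while those of Igfbp3 and Igfbp4 coincide with it. The table of promoters holds 13 for 9 of the 10 members, with none for Insr. On either strand within 250 bases before the start, 1 or more of these 3 motifs occurred in 4 of the 13 (Igfbp3, Igfbp4, Igfbp5 and Igfbp6) and in 18.6% of all 32851 promoters. GGGCGG, the letters of a GC box, occurred in 5 of the 13 (of Igf1r, Igf2, Igfbp2 and Igfbp7) and in 32.7% of all promoters. TTCNNNGAA, the letters that STAT5 recognizes, occurred in 0 of the 13 and in 7.0% of all. These are matches of letters and no evidence of binding.

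The libraries held 10472117 to 15650518 counts and were compared in CPM, the usual scaling of counts by library size, here with TMM factors. Lepr was counted at 6011 ± 529 CPM at 3 months and 4947 ± 1188 CPM at 24 months (SD, n = 2 each), and Ptprc, the gene of the leukocyte antigen CD45, at 0.0858 to 1.08 CPM over 2.61% of its longest transcript. The summed CPM of 14 LEPR+ stromal markers was 39287 and 39037 at 3 months and 24877 and 34932 at 24 months. Of the 14, 13 had a negative log2 fold change and 0 were called. The summed CPM of 7 neutrophil markers was 1442 and 833 at 3 months and 3115 and 2950 at 24 months. That of 8 erythroid markers was 168 and 84.7 against 553 and 414. In each list 4 of the 6 tested were called higher. Macrophage markers summed to 26.4 and 26.2 CPM against 51.8 and 88.3 CPM, with 4 of 7 tested called higher. Of these markers Camp, Hba-a1 and Hba-a2 had 3 counts or fewer over the 4 libraries. The part of these differences in the results below was not tested. In bulk RNA, fewer cells of a type and less RNA per cell cannot be told apart.

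Igfbp4 and Igfbp5 stood far above the rest of the axis at both ages, and no member passed the test between ages. A gene was called at an adjusted p under 0.05 in edgeR's quasi-likelihood test. Of all genes tested, 583 (2.73%) were called, with 487 higher (2.28%) and 96 lower (0.45%) in elderly mice, and 0 of the 10 members were. At an unadjusted p under 0.05, 1 member (Igfbp3) passed, beside 11.2% of all genes. DESeq2 and edgeR's exact test called 0 members, and 0 had an unadjusted p under 0.05 in either. The log2 fold change of elderly over mature was negative in 8 members and positive in 2, with a median of -0.31 beside 0.016 over all genes. Both elderly libraries lay below both mature ones for 3 members (Insr, Igfbp3 and Igfbp4), as for 18.1% of all genes, and above for 1 (Igfbp5), as for 22.9% of all genes. For the other 6 the ages overlapped. Of the 20 transcripts of these genes that could be tested 0 were called, beside 1.66% of all transcripts, and 2 (Igf1-005 and Igfbp3-001) had an unadjusted p under 0.05, beside 8.57% of all transcripts. Igf1-005 had 8 and 10 counts at 3 months and 0 and 1 counts at 24 months.

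**Figure D2:**
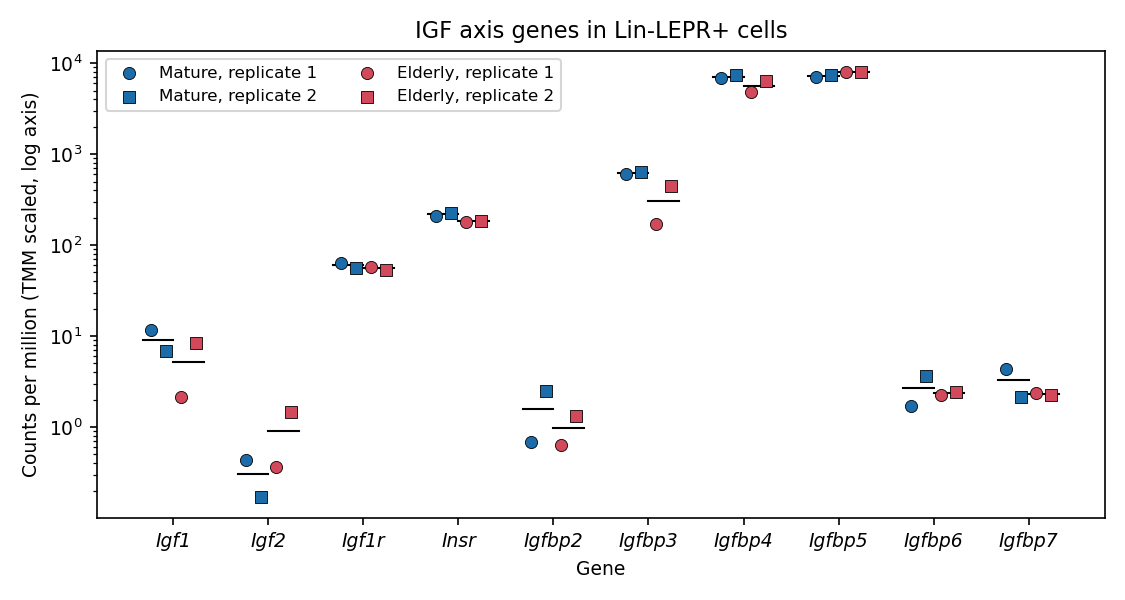
CPM of each IGF axis gene in each of the 4 libraries on a log axis, with 1 point per library coloured by age and a line at the mean of each age. Igfbp4 and Igfbp5 sit between 4805 and 8016 CPM in every library, Igfbp3 between 171 and 643 CPM, and Igf2 between 0.172 and 1.45 CPM.

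Between genes, levels were compared per kilobase of countable sequence, leaving out Igfbp7 with its 93 bases. Such a level describes only the countable bases, which for Igf1, Igf2 and Igfbp2 are mostly noncoding pieces of single transcripts. For Igfbp2, 95.3% of the counts fell on a retained intron. The order that follows is therefore one of counted bases and does not rank the expression of whole genes. In CPM per countable kb, Igfbp4 stood at 4442 ± 262 and Igfbp5 at 4241 ± 140 (SD, n = 2) in mature libraries, which differ by less than the spread of Igfbp4. In elderly libraries the level was 3502 ± 720 for Igfbp4 and 4624 ± 31.5 for Igfbp5 (SD, n = 2). Among 28523 genes with at least 200 countable bases, Igfbp4 ranked 6, 6, 9 and 7 in mature replicates 1 and 2 and elderly replicates 1 and 2, and Igfbp5 ranked 7, 7, 6 and 5. These binding proteins were thus among the most highly counted genes per countable kb in all 4 libraries.

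Igfbp3 came next, at 294 ± 10.6 at 3 months and 144 ± 90.1 at 24 months (CPM per countable kb; SD, n = 2), ranked between 140 and 673. Igf1r followed at 61.8 ± 5.69 and 57.8 ± 3.12, and Insr at 28.7 ± 1.49 and 23.9 ± 0.591, in the same unit and with n = 2. Each of these steps was larger than the SDs at its age, apart from Igfbp3 against Igf1r in elderly libraries, where the gap was smaller than the SD of Igfbp3. Igf1, Igfbp2 and Igfbp6 lay close together at a mean of 1.59 to 4.56 CPM per countable kb, and within each age neighbours in this order differed by less than the larger of their SDs. Igf2 was lowest, at 0.273 ± 0.166 at 3 months and 0.822 ± 0.701 at 24 months (SD, n = 2). In the elderly libraries its gap to Igfbp2 was smaller than the SD of Igfbp2.

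Igf1, the ligand that growth hormone induces in many tissues, was counted at 134 and 79 reads at 3 months and 24 and 126 reads at 24 months. The corresponding CPM were 11.5, 6.77, 2.16 and 8.31, so elderly replicate 1 was lowest and elderly replicate 2 lay within the mature range. The log2 fold change was -0.78 (SE 0.50, 95% interval -1.86 to 0.30, adjusted p = 0.648). It was -2.08 without elderly replicate 2, -0.16 without elderly replicate 1 and -0.35 without mature replicate 1. Igf1 spans chr10:87321010-87399792 on the plus strand, and 4 of its 9 transcripts have countable bases. Igf1-002 held 88.2% of the counts (118, 67, 21 and 114). Of its 1121 countable bases, 545 are the part of a 597-base exon that runs past the 52-base exon of 4 other transcripts.

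Igf2, the ligand best known from fetal growth, is expressed from the paternal allele in most tissues. Its counts were 5 and 2 at 3 months and 4 and 22 at 24 months. Elderly replicate 2 stood apart, and the other 3 libraries were near the 3 counts taken as the floor. The log2 fold change was 1.59 (SE 1.07, 95% interval -0.69 to 3.93, adjusted p = 0.659), 0.25 without elderly replicate 2 and 2.37 without mature replicate 1. All 1101 countable bases of Igf2 (chr7:149836673-149852721, minus strand) are noncoding.

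Igf1r, the receptor that carries most IGF signals, gave 740 and 652 counts at 3 months and 646 and 815 counts at 24 months, or 63.7, 55.9, 58.0 and 53.8 CPM. The ages overlapped, and the log2 fold change was -0.098 (SE 0.21, 95% interval -0.55 to 0.35, adjusted p = 0.936). Igf1r lies at chr7:75097713-75371484 on the plus strand, with 967 countable bases, of which 692 are coding.

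Insr, the insulin receptor, was counted at 2456 and 2653 reads at 3 months and 1992 and 2809 reads at 24 months. In CPM these were 211, 228, 179 and 185, so both elderly libraries were below both mature ones. The log2 fold change was -0.27 (SE 0.19, 95% interval -0.68 to 0.14, adjusted p = 0.678). Per 1000 counts of the LEPR+ stromal markers the values were 5.38, 5.83, 7.19 and 5.31, and on that scale the ages overlapped and the log2 difference was 0.16. Igf1r also turned positive on that scale, at 0.34. Per countable kb the ratio of Insr to Igf1r was 0.420 and 0.515 at 3 months and 0.390 and 0.436 at 24 months, which overlap. Insr spans chr8:3150922-3279617 on the minus strand.

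**Figure D3:**
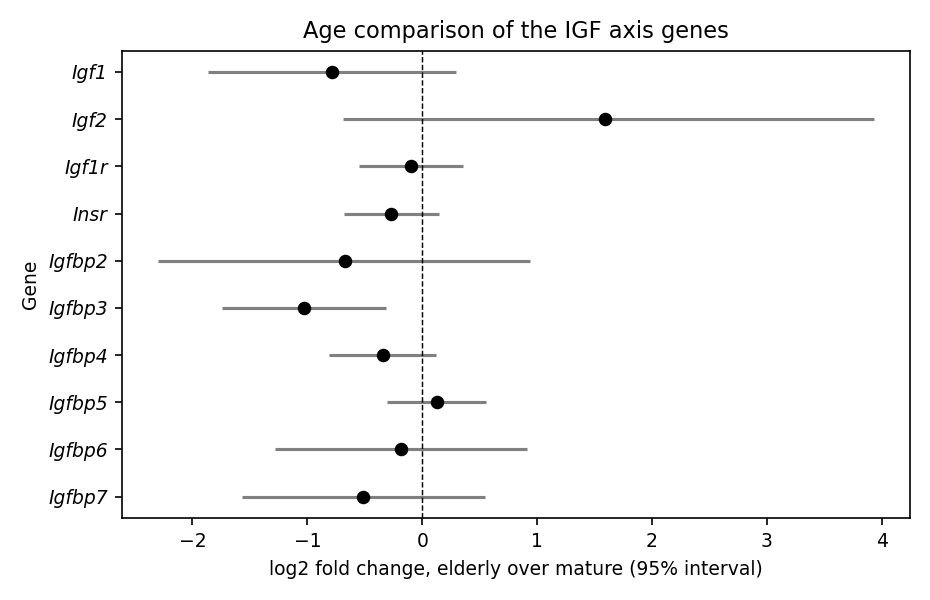
Log2 fold change of elderly over mature libraries for each IGF axis gene, with 95% intervals from edgeR's quasi-likelihood fit. The intervals of all members but Igfbp3 (-1.74 to -0.32) include 0, and those of Igf2 and Igfbp2 are wide, at -0.69 to 3.93 and -2.30 to 0.94.

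Igfbp3, the main carrier of IGF in the circulation, had the lowest unadjusted p of the members. It was counted at 7095 and 7495 reads at 3 months and 1906 and 6711 reads at 24 months, or 611, 643, 171 and 443 CPM. Both elderly libraries were below both mature ones, and the elderly libraries differed more from each other than the mature libraries did. The mean was 627 ± 22.7 CPM at 3 months and 307 ± 192 CPM at 24 months (SD, n = 2). The log2 fold change was -1.03 (SE 0.33, 95% interval -1.74 to -0.32) with an adjusted p of 0.163, and the call was not made. It was -1.87 without elderly replicate 2 and -0.52 without elderly replicate 1. The adjusted p ranged from 2.5e-05 to 0.960 over the alternatives tried, and Igfbp3 was called in 3 of them. Per 1000 counts of the LEPR+ stromal markers Igfbp3 stood at 15.5 and 16.5 at 3 months and 6.88 and 12.7 at 24 months, which again do not overlap, with a log2 difference of -0.71. The counts came almost wholly from the last, noncoding bases of Igfbp3-001 (ENSMUST00000020702) at chr11:7106089-7107509 on the minus strand.

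Igfbp4, which binds both IGFs and is cut by pappalysin-1 when IGF is bound, gave 79371 and 86610 counts at 3 months and 53481 and 97578 counts at 24 months. In CPM these were 6832, 7427, 4805 and 6438, with both elderly libraries below both mature ones. The mean was 7130 ± 421 CPM and 5621 ± 1155 CPM (SD, n = 2), and the log2 fold change was -0.34 (SE 0.22, 95% interval -0.81 to 0.12, adjusted p = 0.641). Per 1000 counts of the LEPR+ stromal markers, which were also lower in both elderly libraries, Igfbp4 was at 174, 190, 193 and 184. On that scale the ages overlapped and the log2 difference was 0.052. Igfbp4 lies at chr11:98902558-98913969 on the plus strand, and Igfbp4-001 (ENSMUST00000017637) carried nearly all of its counts.

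Igfbp5, the binding protein that associates with bone matrix, was the only member with both elderly libraries above both mature ones. Its counts were 83016 and 87305 at 3 months and 89222 and 120320 at 24 months, or 7146, 7487, 8016 and 7939 CPM. The mean was 7316 ± 241 CPM and 7977 ± 54.4 CPM (SD, n = 2), with a log2 fold change of 0.12 (SE 0.20, 95% interval -0.30 to 0.55, adjusted p = 0.909). The counts were all on Igfbp5-001 (ENSMUST00000027377) at chr1:72904506-72921458 on the minus strand, the only 1 of its 2 transcripts with countable bases. Per 1000 counts of the LEPR+ stromal markers Igfbp5 was at 182, 192, 322 and 227, with both elderly libraries higher and a log2 difference of 0.56. The marker sum itself was lower in both elderly libraries, which raises the elderly values on this scale.

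The remaining binding proteins were counted at low levels, and their ages overlapped. Igfbp2, which binds IGF2 with preference, had 8 and 29 counts at 3 months and 7 and 20 counts at 24 months (log2 fold change -0.68, SE 0.75, adjusted p = 0.832). Of these counts 95.3% fell on Igfbp2-003, a transcript annotated as a retained intron, and its 3 protein-coding transcripts have only 74, 153 and 0 countable bases, so their low counts do not show low expression. Igfbp6, the binding protein with the strongest preference for IGF2, had 20, 42, 25 and 37 counts (log2 fold change -0.18, SE 0.51, adjusted p = 0.948). Igfbp7, a secreted protein with low affinity for IGFs, had 51, 25, 26 and 34 counts on its 93 countable bases (log2 fold change -0.51, SE 0.49, adjusted p = 0.782). The sign of the log2 fold change turned without mature replicate 2 for Igfbp2 (0.48) and Igfbp6 (0.40) and without mature replicate 1 for Igfbp7 (0.093).

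The makeup of the binding proteins was compared within each library. The 6 Igfbp genes took 1.42% and 1.55% of all counts at 3 months and 1.38% and 1.44% at 24 months, and their summed level, which does depend on scaling between libraries, was 8736, 9300, 7749 and 8850 CPM per countable kb, with the ages overlapping in both measures. Igfbp4 and Igfbp5 together made up 96.1% and 96.4% of the summed level at 3 months and 98.6% and 97.3% at 24 months. The sum includes Igfbp7 on its 93 countable bases, and Igfbp2, with 95.3% of its counts on a retained intron. Shares of it are therefore shares of counted bases and not of whole-gene expression.

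The shares of Igfbp3, Igfbp4 and Igfbp5 did not overlap between the ages, and the elderly libraries differed more from each other than the mature ones did. Igfbp4 and Igfbp5 made up most of the sum, so a lower share of one goes with a higher share of the other. How often shares or ratios of other genes do not overlap was not computed. For single genes, both elderly libraries lay below both mature ones in 18.1% and above in 22.9%. Igfbp4 made up 48.7% and 49.8% of the summed level at 3 months and 38.6% and 45.3% at 24 months. Igfbp5 made up 47.4% and 46.7% at 3 months and 59.97% and 52.0% at 24 months. Counts of Igfbp5 per count of Igfbp4 were 1.05 and 1.01 at 3 months and 1.67 and 1.23 at 24 months. Igfbp3 took 3.28% and 3.24% of the summed level at 3 months and 1.04% and 2.35% at 24 months. Its counts per count of Igfbp5 were 0.0855 and 0.0858 at 3 months and 0.0214 and 0.0558 at 24 months. In each of these shares and ratios elderly replicate 1 lay farther from the mature pair. An exact permutation test of 2 libraries against 2 cannot give a p below 1 in 3, so these differences are described and not tested.

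**Figure D4:**
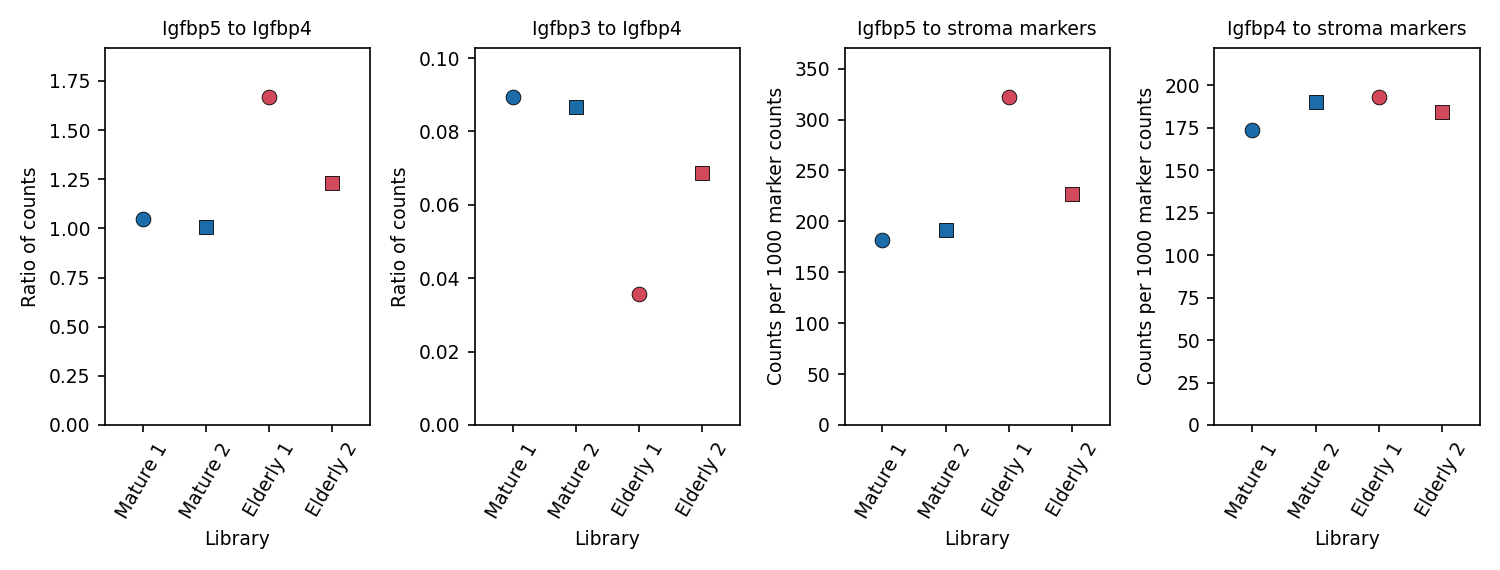
Ratios within each of the 4 libraries, with 1 point per library coloured by age: counts of Igfbp5 and of Igfbp3 per count of Igfbp4, and counts of Igfbp5 and of Igfbp4 per 1000 counts of the LEPR+ stromal markers. Igfbp5 to Igfbp4 is 1.05 and 1.01 at 3 months and 1.67 and 1.23 at 24 months, Igfbp3 to Igfbp4 is 0.0894 and 0.0865 against 0.0356 and 0.0688, and Igfbp4 to the markers, at 174 and 190 against 193 and 184, is the panel in which the ages overlap.

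Beyond the 10 members, 72 other genes of the IGF and growth hormone pathways were listed by role, and 64 of them had enough counts. Of these, 8 were called (12.5%, beside 2.73% of all genes), 4 higher and 4 lower in elderly mice, with a median log2 fold change of -0.080. The lists were written by hand with earlier results of these data known, so the difference between these shares is described and not tested. All 8 calls were lost without elderly replicate 2, where 0 of 20580 genes of any kind were called by the quasi-likelihood test, with 1637 at an unadjusted p under 0.05. Without elderly replicate 1, Pappa2 alone of the 8 was called. In an exact test at the study's dispersion of 0.2, here on genes of all types, Pappa2 and Igf2as were called and the other 6 were not. Igf2as is annotated as noncoding, and the study kept protein-coding transcripts only.

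Among extracellular partners, which include the mannose 6-phosphate receptor, proteases and their inhibitors, 14 of 18 were tested. Of these, 2 were called higher and 1 lower (median log2 fold change 0.0067). Pappa2 encodes pappalysin-2, a metalloprotease that cuts IGFBP3 and IGFBP5. It was counted at 35 and 34 reads at 3 months and 153 and 592 reads at 24 months, or 3.01, 2.92, 13.7 and 39.1 CPM. Pappa2 rose by 3.16 on the log2 scale (SE 0.45, adjusted p = 0.0022), and by 2.21 without elderly replicate 2, where no call was made, and 3.70 without elderly replicate 1. All its counts lay on the protein-coding transcript Pappa2-001, which holds 7504 of its 7698 countable bases.

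Htra1, a secreted serine protease reported to cut IGFBP5, had 54 and 56 counts at 3 months and 15 and 17 counts at 24 months and fell by 1.94 on the log2 scale (SE 0.46, adjusted p = 0.040). Only 4 of its 5 transcripts have countable bases, and these are all annotated as retained introns or processed transcripts. Its counts therefore had to come from them, with 54.9% on the retained intron Htra1-003. They do not show whether protein-coding Htra1 RNA was present. Insrr, a receptor of the insulin receptor family that senses alkaline pH, had 6, 5, 48 and 36 counts and rose by 2.79 (log2, SE 0.63, adjusted p = 0.030), with 67.4% of the counts on the retained intron Insrr-003. The other 32.6% lay on the protein-coding Insrr-001 (3, 3, 15 and 10 counts), which was not called on its own (log2 fold change 1.93, adjusted p = 0.545 over transcripts). Of the 891 countable bases of Insrr, Insrr-003 holds 580 and Insrr-001 holds 279. The call of Htra1 was lost with library size alone (adjusted p = 0.051) and with its most counted transcript (adjusted p = 0.086).

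The other direct partners were not called. Igf2r, the mannose 6-phosphate receptor that clears IGF2, gave 7298, 7754, 6859 and 10597 counts (log2 fold change 0.025, adjusted p = 0.983). Pappa, the gene of pappalysin-1, gave 168, 122, 72 and 203 counts over only 87 countable bases (log2 fold change -0.32, adjusted p = 0.842). Igfals, whose protein joins IGF and IGFBP3 or IGFBP5 in a ternary complex, gave 24, 20, 22 and 27 counts (adjusted p = 0.996). Igfbp1 had 0, 9, 0 and 2 counts (adjusted p = 0.738), and Stc2, whose protein inhibits pappalysins, had 0, 1, 0 and 0 counts and was not tested.

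Of 35 genes of receptor signalling, 33 were tested and 1 was called, Grb10, with a median log2 fold change of -0.079. GRB10 is an adaptor that binds the insulin and IGF1 receptors and dampens their signal. It was counted at 630 and 605 reads at 3 months and 307 and 397 reads at 24 months, or 54.2, 51.9, 27.6 and 26.2 CPM, and fell by 0.98 on the log2 scale (SE 0.22, adjusted p = 0.031). Of its counts 78.3% lay on the processed transcript Grb10-006, and the call was lost whichever library was left out. Grb10-006 holds 3019 of the 4103 countable bases of Grb10, so its share of the counts does not rank the transcripts by expression. The receptor substrates Irs1 and Irs2 had log2 fold changes of -0.082 (adjusted p = 0.947) and -0.0024 (adjusted p = 0.998).

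All 9 genes of growth hormone input were tested, 2 were called lower, and the median log2 fold change was -0.43. Ghr, the growth hormone receptor, was counted at 5810 and 6932 reads at 3 months and 2360 and 4989 reads at 24 months, or 500, 594, 212 and 329 CPM. It fell by 1.02 on the log2 scale (SE 0.23, adjusted p = 0.036), and the call was lost in the exact test (adjusted p = 0.973) and with the most counted transcript (adjusted p = 0.064). Per 1000 counts of the LEPR+ stromal markers it was at 12.7, 15.2, 8.52 and 9.42, with both elderly libraries lower on that scale as well. Ghr-005, which is protein-coding, held 63.2% of the counts and was not called on its own (log2 fold change -0.76, adjusted p = 0.296 over transcripts). The Ghr transcripts that were called are the retained introns Ghr-003 (log2 fold change -1.34, adjusted p = 0.0032) and Ghr-004 (log2 fold change -1.499, adjusted p = 0.0034). All other Ghr transcripts tested also had a negative log2 fold change without a call. Among them are the protein-coding Ghr-009 (-1.14, adjusted p = 0.051 over transcripts) and Ghr-010 (-1.65, adjusted p = 0.131).

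Stat5a, a transcription factor that acts below the growth hormone receptor, had 534, 596, 306 and 311 counts, or 46.0, 51.1, 27.5 and 20.5 CPM. It fell by 1.02 on the log2 scale (SE 0.24, adjusted p = 0.040). Of its counts 70.4% lay on the processed transcript Stat5a-003, which holds 2476 of the 3304 countable bases of the gene. This share does not rank its transcripts by expression. Stat5a was not called with library size alone (adjusted p = 0.056). The calls of Ghr, Stat5a and Htra1 were also lost without mature replicate 2. Socs2, a feedback inhibitor of this receptor, gave 308, 95, 111 and 193 counts (log2 fold change -0.61, adjusted p = 0.676), with mature replicate 1 apart from the other 3 libraries.

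Of 10 genes that control Igf2 or bind IGF mRNAs, 8 were tested and 2 were called higher, with a median log2 fold change of -0.32. Lin28a encodes an RNA-binding protein that blocks maturation of let-7 and binds mRNAs, Igf2 among them. It had 22 and 20 counts at 3 months and 94 and 130 counts at 24 months and rose by 2.23 on the log2 scale (SE 0.38, adjusted p = 0.0070). These counts lay on the protein-coding Lin28a-001, its only annotated transcript. Igf2as, an RNA transcribed antisense to Igf2, had 12, 6, 46 and 88 counts and rose by 2.67 (log2, SE 0.53, adjusted p = 0.016). The strand setting of the counting is not given in the sources used here, so reads of Igf2as cannot be told apart from unannotated reads of the Igf2 strand.

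**Figure D5:**
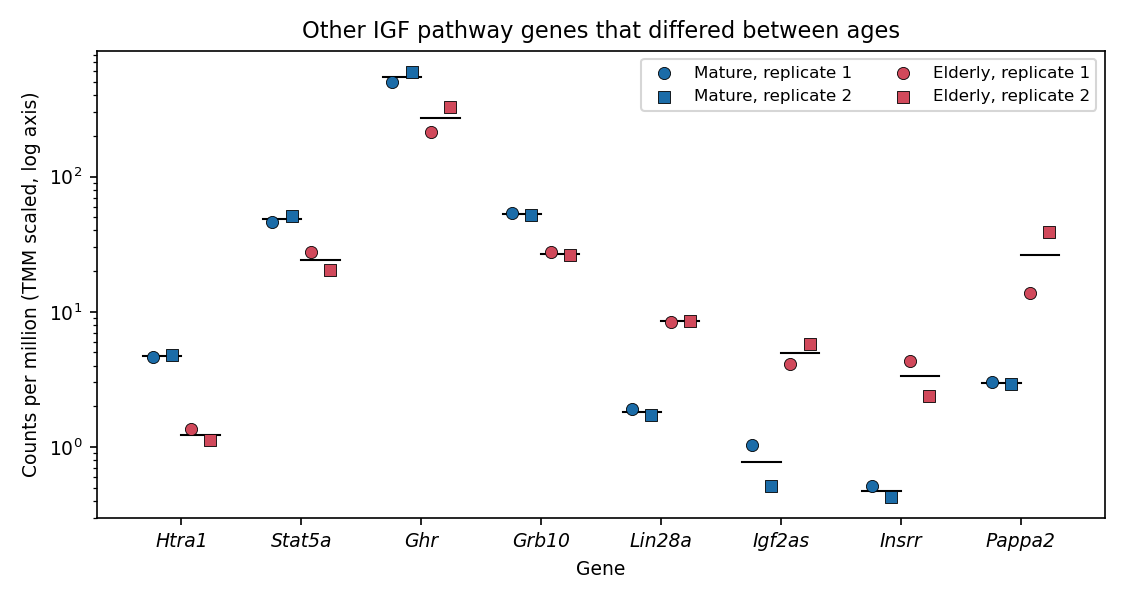
CPM of the 8 called genes of the IGF and growth hormone lists in each of the 4 libraries on a log axis, with 1 point per library coloured by age and a line at the mean of each age. Pappa2, Lin28a, Igf2as and Insrr were higher and Grb10, Ghr, Stat5a and Htra1 lower in both elderly libraries, with Pappa2 at 3.01 and 2.92 CPM against 13.7 and 39.1 CPM.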

How the data were processed

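The authors trimmed the reads (CutAdapt), aligned them to the mm9 genome (HISAT2) and ran featureCounts. The values they deposited are raw counts per Ensembl transcript, with neither normalization nor a filter. The labels give poly(A) RNA for all 4 libraries. The study's methods except some samples, named by abbreviations, as total RNA, and whether any of the 4 is among these is not clear, so a difference in RNA selection between libraries, which would bear above all on retained introns, was not tested. The library kit was directional, and the strand setting and the treatment of shared reads are not given in the sources used here. All but 388 transcripts matched GENCODE M1, and these held 0.0785% to 0.0888% of the counts. Counts were summed per gene symbol and library.

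Ages were compared with edgeR 4.0.16 in R 4.3.3 by the quasi-likelihood test (2-sided, TMM, sum of counts over 2, prior count 0.125, age as the only term), with Benjamini-Hochberg adjustment over 21340 genes, or 42351 transcripts, and calls at an adjusted p under 0.05. An exact test at the study's dispersion of 0.2 was an alternative, here on counts summed per gene of all types, where the study kept protein-coding transcripts only. Other alternatives were DESeq2 1.42.0, other filters and scalings, a robust fit, a replicate term, the most counted transcript per gene, and each library left out. The common dispersion was 0.0687. Replicates of an age differed by more than sampling noise (chi-square per degree of freedom 16.2 in mature, 34.6 in elderly libraries).

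Named genes were all members, every called pathway gene, and Igf2r, Igfbp1, Igfals, Pappa, Stc2, Irs1, Irs2, Ghr and Socs2. Members, lists and alternatives were chosen with earlier results of these data known. Pathway and marker lists were written by hand. Besides those given in the report, the summed CPM in the order mature 1, mature 2, elderly 1, elderly 2 was 7013, 6394, 2155 and 4079 for osteoblast markers (1 of 9 called higher, Col1a1, and 1 lower, Ibsp), 71.8, 95.9, 88.6 and 87.9 for chondrocytes (1 of 5 tested higher, 2 lower), 12.2, 6.35, 15.0 and 25.1 for adipocytes (0 of 3), 16.8, 19.7, 67.2 and 54.7 for fibroblasts (2 of 6 higher), 30.1, 37.8, 45.8 and 45.1 for endothelium (1 of 7 higher), 58.9, 117, 86.3 and 92.6 for pericytes and smooth muscle (1 of 4 higher), 13.4, 11.9, 27.7 and 19.5 for B lineage (0 of 6), 139, 117, 141 and 158 for plasma cells (1 of 3 higher) and 13.5, 225, 92.4 and 169 for megakaryocytes (0 of 5).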

Additional observations from a re-analysis of the deposited data

How the results depend on the processing

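The number of IGF axis genes called moved from 0 to 1, Igfbp3, without a filter on low counts, with the replicate block and with the transcript with the most counts in place of the sum. The number of their transcripts called moved from 0 to 1, Igfbp3-001, without a filter, with the robust fit and with the replicate block. No other alternative called a member or its transcript, and the cause of these differences was not tested. The number of all genes called was 583, and 233 in the exact test, 908 in the robust fit, 1157 without a filter, 1262 with the replicate block, 235 with an absolute log2 fold change over 2, and 0 to 866 with 1 library left out (0 without elderly replicate 2, 40 without elderly replicate 1). For the pathway lists 8 genes were called, 2 in the exact test (Pappa2 and Igf2as) and 0 to 9 with 1 library left out (1 without elderly replicate 1). With 1 library left out, the log2 fold change ranged from -1.32 to 0.48 for Igfbp2, from -0.62 to 0.40 for Igfbp6 and from -0.98 to 0.093 for Igfbp7, so their sign turned. Relative to the LEPR+ stromal markers, an alternative chosen after seeing the data, the log2 difference turned for Igf1r (0.34), Insr (0.16), Igfbp4 (0.052) and Igfbp6 (0.24), and that of Igfbp5 moved from 0.12 to 0.56. The other members kept their sign under the alternatives run. The labels number the replicates without saying that a number pairs libraries, and the differences between replicates 1 and 2 at the 2 ages correlated at r = 0.043 over 14238 genes, so the block fit is given as an alternative only. The counts of Igf2, Igfbp2, Igfbp6 and Igfbp7 lay between 2 and 51, which limits the precision of their fold changes.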
